A study of Mus musculus with 8 samples.

Results

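CREB and MEF2 are the transcription factor families through which calcium and cyclic AMP signals reach the genes of a neuron. The 10 genes described here are 3 factors of the CREB class (Creb1, Crem and Atf1), 2 CREB-regulated coactivators (Crtc1 and Crtc2), the acetyltransferases CBP and p300 (Crebbp and Ep300) and 3 MEF2 factors (Mef2a, Mef2c and Mef2d). They were taken by gene symbol from a table of 26229 genes, and each symbol matched 1 row. All 10 had enough counts to be tested, out of 18085 tested genes. RNA of mouse primary cortical neurons, taken at E16.5 and kept in culture for 12 days, was compared between 4 libraries of the genotype WT and 4 of the genotype H2BE-KO/mCherry-KI. In the latter an mCherry knock-in removes H2BE, a variant of the core histone H2B encoded by H2bc21. Per the labels the 4 libraries of a genotype are biological replicates. The labels do not say whether embryos were pooled, and they name no treatment and no strain.

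CREB, CREM and ATF1 share a leucine-zipper DNA-binding domain that recognises the cyclic AMP response element (CRE). Kinases activated by calcium or cyclic AMP phosphorylate an activating serine in them, which then recruits CBP or p300. CRTC proteins enter the nucleus when calcineurin removes their phosphates, and bind CREB without that serine. MEF2 factors bind an AT-rich element, are held back by class IIa histone deacetylases, and are known in cortex for their control of synapse number. The Crem gene also has an internal promoter, itself controlled by CREB, that yields the short repressor ICER.

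All values come from the authors' deposited table, which holds for each gene a mean normalized count over all 8 libraries, a log2 fold change with its standard error (SE), and an adjusted p from DESeq2. A gene was called at an adjusted p under 0.05. Values per library were not analysed here, so the level in each genotype is the one implied by the mean count and the fold change, with no spread of its own. The error between replicates enters through the SE. Fold changes are knockout over wild type, a direction inferred from the targeted gene H2bc21 (chromosome 3, 96221119 to 96223738, plus strand, GRCm38). Its log2 fold change is positive in the authors' deposited table. The sign of every fold change was therefore reversed, also wherever a value below is credited to that table. H2bc21 then stood at 9.12% of wild type (log2 fold change -3.45, SE 0.19, adjusted p = 4.49e-68). With the opposite reading every rise and fall below would swap. Depth per library was not analysed here, and the mean normalized counts summed to 3.96e+07. The 10 general neuron markers had mean normalized counts from 2650 (Rbfox3) to 90482 (Map2), whereas the 12 tested microglia markers had a median of 14.4.

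Of the 10 genes, Mef2a and Crtc1 rose, Crem fell and 7 did not pass. That is 3 called genes, against 21.8% of all tested genes called in either direction, 11.0% higher and 10.9% lower. Calls become more frequent with count. Among the 6808 genes with a mean count above 1000, 30.6% were called, and 8 of the 10 genes, the 3 called ones included, lie in that band. The other 2, Atf1 and Crtc2, lie between 100 and 1000, where 26.1% were called. The number of calls among the 10 genes is therefore close to the background of genes of like abundance. Their median log2 fold change was 0.06, and that of all tested genes was -0.02. None of the 3 calls passed when the Wald statistics were referred to a t distribution with 6 degrees of freedom, which called 0.00553% of all tested genes (adjusted p = 0.102 for Crem, 0.106 for Mef2a and 0.177 for Crtc1). With that distribution H2bc21 came to an adjusted p of 0.0344, and Dpysl3, with a Wald statistic of 7.77, to 0.0645. No gene with a smaller Wald statistic could then pass, so this setting cannot decide about the 3 calls. An empirical null, with a normal widened 1.95 times, called 0.393% and gave adjusted p from 0.591 to 0.845 for the 3. Its width comes from the Wald statistics of all tested genes, so true changes in many genes would widen it too.

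**Figure D1:**
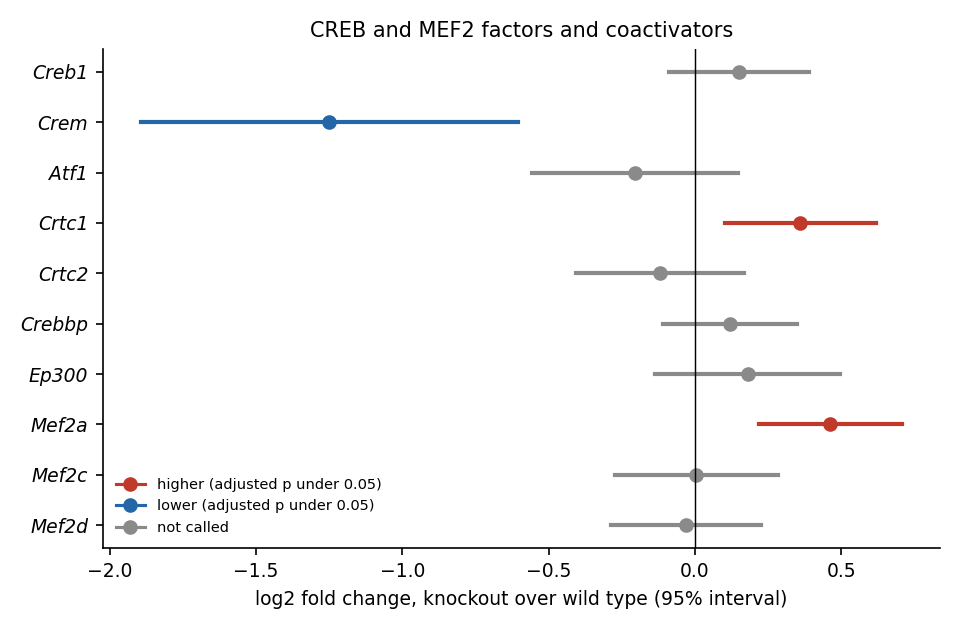
Log2 fold change of each of the 10 genes, knockout over wild type, with its 95% interval from the deposited standard error; colour marks the call at an adjusted p under 0.05. Crem lies at -1.25 with the widest interval, Mef2a and Crtc1 lie above 0, and the intervals of the other 7 genes cross 0.

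Crem, the gene of the cyclic AMP response element modulator, changed most among the 10. Its transcript level implied by the authors' deposited table was 1440.2 normalized counts in wild type and 606 in the knockout. The knockout level was thus 42.1% of wild type, with a 95% interval of 26.9% to 65.8%. The log2 fold change was -1.25 (SE 0.33, adjusted p = 0.00166), and Crem ranked 1590 of the 18085 tested genes by the size of its Wald statistic. Its SE was the largest of the 10, against a median SE of 0.127 among genes of mean count above 1000. Crem lies on the minus strand of chromosome 18 from 3266048 to 3337748 (GRCm38), and GENCODE M21 annotates 39 transcripts for it. The table gives 1 value for the gene, so activator forms of CREM and the repressor ICER cannot be told apart. A noncoding gene on the opposite strand, Gm6225, shares 472 exon bases with Crem, or 8.01% of its exon length. Gm6225 had a mean normalized count of 16.04 and a log2 fold change of -0.02 (SE 0.57).

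Creb1, the gene of CREB itself, did not pass. Its implied level was 2061 normalized counts in wild type and 2287 in the knockout. The fold change in the authors' deposited table was 0.15 on the log2 scale (SE 0.12, adjusted p = 0.411). The 95% interval ran from 94.0% to 131% of wild type, so a loss of the size seen for Crem lies outside it. Atf1, the third factor of the class, was the least abundant of the 10 genes, at 167 normalized counts in wild type and 145 in the knockout. Its log2 fold change was -0.20 (SE 0.18, adjusted p = 0.456), with an interval of 68.0% to 111% of wild type. A processed pseudogene, Atf1-ps, is 98.4% identical to the Atf1 transcript over 810 bases, but had a mean normalized count of only 0.221. Creb1 is on the plus strand of chromosome 1 (64532645 to 64604548) and Atf1 on the plus strand of chromosome 15 (100227819 to 100261244).

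The CRTC coactivators gave 1 call. Crtc1, the CRTC that shuttles between synapse and nucleus in neurons, rose from an implied 3859 normalized counts in wild type to 4951 in the knockout. On the log2 scale of the authors' deposited table this was 0.36 (SE 0.13, adjusted p = 0.0324), or 1.28-fold with a 95% interval of 1.07 to 1.53. The call was lost at an adjusted p of 0.01, which 13.9% of all tested genes passed. Crtc2, a CRTC studied most for its role in liver glucose production, stood at 428 normalized counts in wild type and 394 in the knockout. Its log2 fold change of -0.12 (SE 0.15, adjusted p = 0.614) did not pass, and its interval of 75.4% to 112% of wild type overlaps that of Crtc1, which starts at 107%. Whether the 2 CRTC genes differed in response was not tested. Crtc1 spans 70382355 to 70439579 on the minus strand of chromosome 8, and Crtc2 90254163 to 90264125 on the plus strand of chromosome 3.

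The acetyltransferase genes Crebbp and Ep300, whose products bind phosphorylated CREB and also serve MEF2, did not pass. Crebbp (chromosome 16, 4081328 to 4213997, minus strand) stood at an implied 2019 normalized counts in wild type and 2194 in the knockout. Per the authors' deposited table its log2 fold change was 0.12 (SE 0.12, adjusted p = 0.514), with an interval of 92.7% to 127% of wild type. Ep300 (chromosome 15, 81585351 to 81652077, plus strand) stood at 2526 and 2863 normalized counts (log2 fold change 0.18, SE 0.16, adjusted p = 0.467), with an interval of 91.0% to 141%. The fold changes of these paralogs differed by less than the SE of either.

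Of the MEF2 genes only Mef2a passed. Its implied level was 5069.7 normalized counts in wild type and 6987 in the knockout, and its log2 fold change in the authors' deposited table was 0.46 (SE 0.12, adjusted p = 0.00211). This is a rise of 1.38-fold with a 95% interval of 1.16 to 1.63, at rank 1676 by Wald statistic. Mef2a (chromosome 7, 67231163 to 67372858, minus strand) shares 302 exon bases, 2.06% of its exon length, with Lysmd4 on the opposite strand. Lysmd4, with a mean normalized count of 1417, also rose (log2 fold change 0.33, SE 0.12, adjusted p = 0.0369). Whether counting used strand is not given in the sources used here, so reads in the shared stretch cannot be assigned to either gene.

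Mef2c, the MEF2 gene most closely tied to cortical neuron development, was the most abundant of the 10 and showed almost no difference. It stood at 17804 normalized counts in wild type and 17859 in the knockout, with a log2 fold change of 0.00 in the authors' deposited table (SE 0.14, adjusted p = 0.988). The interval of 82.8% to 122% of wild type does not reach the Mef2a estimate of 138%, but it overlaps the Mef2a interval of 116% to 163%. Mef2d stood at 5929.99 and 5808 normalized counts (log2 fold change -0.03, SE 0.13, adjusted p = 0.900), with an interval of 82.0% to 117%. This too overlaps the Mef2a interval, which starts at 116.4%. An antisense transcript, 1700113A16Rik, shares 531 exon bases with Mef2d at a mean count of 15.8. Mef2c lies on chromosome 13 (83504034 to 83667080) and Mef2d on chromosome 3 (88142372 to 88172086), both on the plus strand. The difference between Mef2a and its paralogs was not tested, since the table holds no covariance between genes.

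Compared per kilobase of annotated exon, the MEF2 genes were the most abundant and Atf1 the least. Mean normalized counts per kilobase were 1135 for Mef2c and 981 for Mef2d, at the 90.7th and 88.9th percentile of all tested genes. Mef2a (411 per kilobase) and Crtc1 (394) followed close together. Next came Ep300 (189), Crem (174), Creb1 (158) and Crebbp (156), then Crtc2 (100.4) and Atf1 (51.1), the last at the 40.3rd percentile. The spread of these levels between libraries was not analysed here, so neighbours in the order are not shown to differ. Exon length sets part of the order: per kilobase of the longest transcript, Mef2a came to 1089 and Mef2d to 1087. In the implied levels per genotype, Crem went from 244 per kilobase in wild type, above Ep300 (177), to 103 in the knockout, below Creb1 (166). Crtc2, the next gene down in the knockout, stood at 96.2 per kilobase there.

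**Figure D2:**
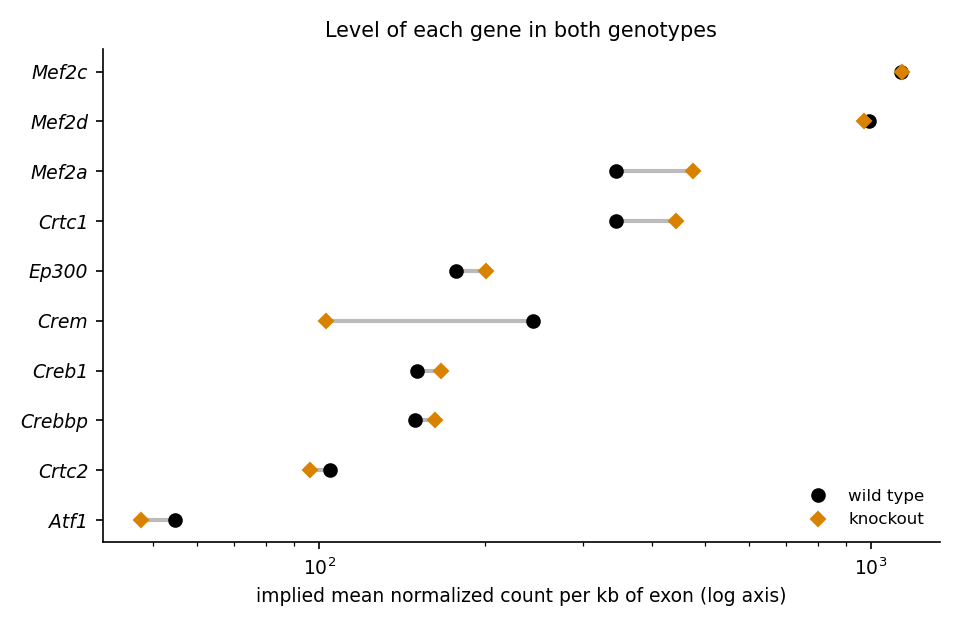
Implied mean normalized count per kilobase of exon in wild type (black circles) and knockout (orange diamonds) for each gene, on a log axis, ordered by the mean of all libraries. Crem falls from 244 to 103 while the symbols of Mef2c overlap at 1133 and 1136; no spread between libraries is drawn.

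**Figure D3:**
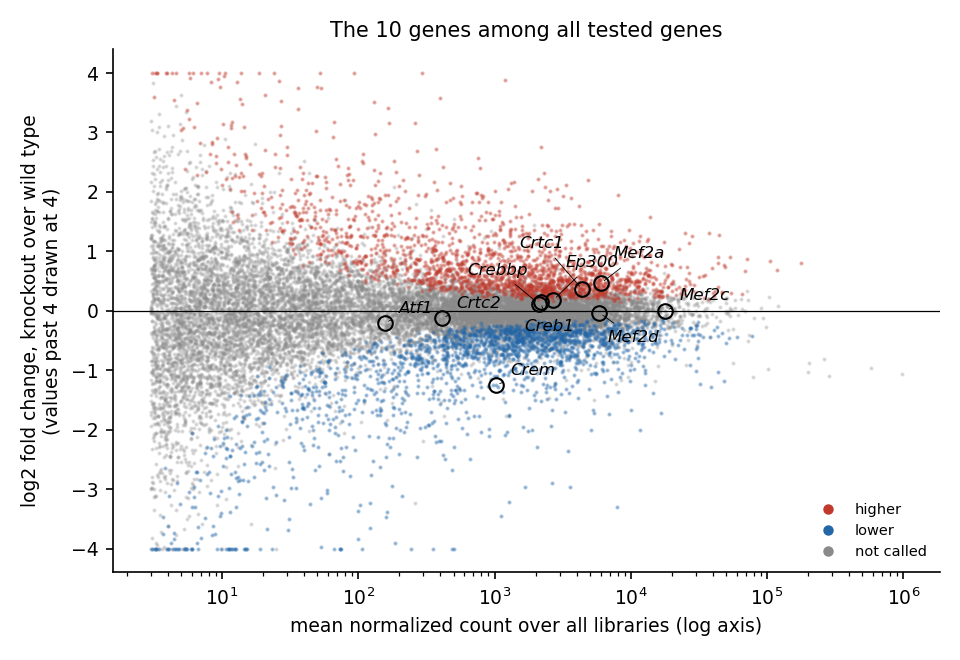
Mean normalized count (log axis) against log2 fold change, knockout over wild type, for the 18085 tested genes, coloured by call, with the 10 genes ringed; fold changes past 4 are drawn at 4. Crem lies among the lower genes, Mef2a and Crtc1 at the inner edge of the higher ones, and the other 7 in the grey band.

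Most of the lower calls in the wider pathway were among CREB targets. The 7 lists of related genes, chosen with earlier results of these data known, gave 7 higher and 13 lower genes of 89 tested, or 22.5%. Of the 68 with a mean count above 1000, 18 were called, or 26.5%, against 30.6% of all tested genes in that band. Of the 11 tested relatives of the 2 families, 2 fell and none rose (also none higher at an unadjusted DESeq2 p under 0.05), with a median log2 fold change of -0.25. In the authors' deposited table Creb3, which encodes a membrane-anchored factor freed by proteolysis, fell to -0.52 (SE 0.14, adjusted p = 0.00249). Crebl2 fell to -0.61 (SE 0.18, adjusted p = 0.00513). The third CRTC gene, Crtc3, was at -0.25 (SE 0.17) and did not pass. Mef2b was too low to be tested.

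Another list held 18 genes of kinases that act on CREB, of kinases that activate these, and of regulatory subunits. Of the 18, 3 rose, 2 fell and the median log2 fold change was 0.11. Over all tested genes 21.8% were called in either direction, and 30.6% of those with a mean count above 1000. The median mean count of the 18 was 5511. Camk4, the gene of the nuclear calcium/calmodulin kinase that phosphorylates CREB and CBP, rose to 0.80 (SE 0.19, adjusted p = 5.91e-04) in the authors' deposited table. Its implied level went from 5702 normalized counts in wild type to 9921 in the knockout. Camkk2, whose product activates CaMKIV, rose to 0.71 (SE 0.14, adjusted p = 2.15e-05). Among regulatory subunit genes of protein kinase A, Prkar2b rose to 0.53 (SE 0.11) and Prkar1a fell to -0.25 (SE 0.08, adjusted p = 0.00939). The other lower gene was Rps6ka2, at -0.41 (SE 0.15, adjusted p = 0.0342). The catalytic subunit genes Prkaca (-0.10, SE 0.08) and Prkacb (0.13, SE 0.09) did not pass.

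Regulators of CRTC and MEF2 activity gave single calls. Over all tested genes 21.8% were called in either direction, and 30.6% of those with a mean count above 1000. Of the 7 genes of salt-inducible kinases and calcineurin, Ppp3cb, a catalytic calcineurin subunit gene, rose to 0.53 (SE 0.11, adjusted p = 2.88e-05) per the authors' deposited table. The kinase genes Sik1 (0.10, SE 0.16), Sik2 (-0.20, SE 0.20) and Sik3 (-0.49, SE 0.23) did not pass. Of the 9 genes of MEF2 corepressors and kinases, 1 passed: Mapk7, the gene of the MEF2 kinase ERK5, at 0.34 (SE 0.13, adjusted p = 0.0493). That call was lost when no filter on low counts was applied (adjusted p = 0.0711). The class IIa deacetylase genes Hdac4 (-0.44, SE 0.22), Hdac5 (-0.51, SE 0.20, adjusted p = 0.0514) and Hdac9 (-0.60, SE 0.26, adjusted p = 0.0804) lay below 0 without passing, while Hdac7 was at 0.18 (SE 0.15). Of 11 other coactivator genes 1 passed, Kat6b, a histone acetyltransferase gene, at 0.69 (SE 0.15, adjusted p = 9.67e-05).

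Of 25 CREB target genes, 8 fell, 17 did not pass and none rose (none higher and 12 lower at an unadjusted DESeq2 p under 0.05), against 10.9% of all tested genes called lower. Of the 21 with a mean count above 1000, 7 fell, where 15.0% of all genes in that band did. Of the 25, 21 lay below 0, and their median log2 fold change was -0.74. The list was chosen with earlier results of these data known, so these shares are not independent of them. In the authors' deposited table the secretory protein genes Vgf, Scg2 and Pcsk1 were at -1.72 (SE 0.41), -1.28 (SE 0.31) and -1.29 (SE 0.33). Ppargc1a, the gene of the coactivator PGC-1alpha, was at -0.91 (SE 0.16, adjusted p = 1.04e-06). Bdnf, the gene of brain-derived neurotrophic factor, went from an implied 8159 normalized counts in wild type to 2044 in the knockout (log2 fold change -1.997, SE 0.54, adjusted p = 0.00245). Fosb, Atf3 and Tac1 were the other lower genes. The early response genes Fos (-1.22, SE 0.57) and Nr4a1 (-0.85, SE 0.52) did not pass, and Egr1 (0.50, SE 0.29), Nr4a2 (0.46, SE 0.29), Sik1 (0.10, SE 0.16) and Cartpt (0.69, SE 0.56) lay above 0. With the t distribution or the empirical null, which called 0.00553% and 0.393% of all tested genes, none of the 25 was called.

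Among 11 MEF2 targets, 1 rose, 2 fell and the median log2 fold change was -0.10, where 11.0% of all tested genes rose and 10.9% fell. The median mean count of the 11 was 4366. Among all tested genes with a mean count above 1000, 30.6% were called in either direction. Pcdh10, a protocadherin gene, rose to 0.61 (SE 0.14, adjusted p = 1.80e-04) in the authors' deposited table. Lgi1, the gene of a secreted synaptic protein, fell to -0.98 (SE 0.18, adjusted p = 1.61e-06). Bdnf, which belongs to both target lists, was the other lower gene. Arc (-0.28, SE 0.41), Homer1 (0.15, SE 0.14) and Jun (-0.10, SE 0.18) did not pass.

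**Figure D4:**
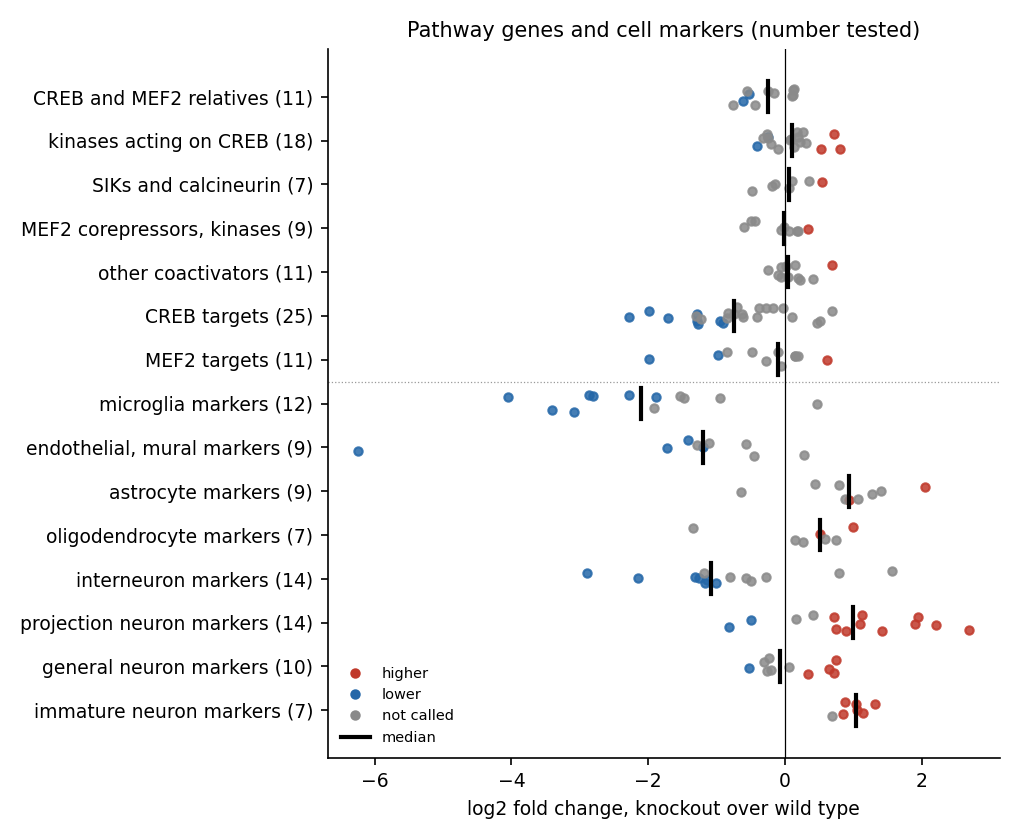
Log2 fold change, knockout over wild type, of each tested gene in the 7 pathway lists (above the dotted line) and 8 cell marker lists (below it), with the list median as a black bar and colour for the call. The CREB targets spread to the left with a median of -0.74, while the medians of the other 6 pathway lists lie between -0.25 and 0.11.

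Markers of cell types moved between the genotypes as well, and in bulk RNA fewer cells of a type and less RNA per cell cannot be told apart. Mef2a and Mef2c are also expressed in microglia, and Mef2c in endothelial cells, in projection neurons and in interneurons. Over all tested genes 11.0% rose and 10.9% fell. Of 12 tested microglia markers, with a median mean count of 14.4, 7 fell and none rose (8 lower and none higher at an unadjusted DESeq2 p under 0.05). Their implied levels, with P2ry12, which was too low to be tested, summed to 1074 normalized counts in wild type and 239 in the knockout. Cd68 alone, called at -2.29 in the authors' deposited table (SE 0.40), made up 835 and 171 of these, and the others summed to 239.5 and 67.7. Of 9 tested endothelial and mural markers 4 fell and none rose (the same at an unadjusted DESeq2 p under 0.05), with sums of 2476 and 1490.03. Rgs5, which did not pass (-0.46, SE 0.70), made up most of these, and without it the sums were 951 and 379, or 39.9% of wild type in place of 60.2%. Astrocyte and oligodendrocyte markers lay mostly above 0. Of 9 tested astrocyte markers 2 rose, none fell and 8 lay above 0 (4 higher and 1 lower at an unadjusted DESeq2 p under 0.05), with a median of 0.93 and sums of 10767 and 20643. Slc1a2 made up 9274 and 17705 of these, and the others summed to 1493 and 2938. Of 7 tested oligodendrocyte markers 2 rose and none fell (2 higher and 1 lower at an unadjusted DESeq2 p under 0.05), with sums of 1830.4 and 2269. Mbp, which did not pass, made up 1112 and 1227 of these. Without it the sums were 718 and 1042, or 145% of wild type in place of 124%.

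Neuronal markers moved in both directions. Over all tested genes 11.0% rose and 10.9% fell, and 30.6% of those with a mean count above 1000 were called in either direction. Of 14 interneuron markers 7 fell and none rose (9 lower and none higher at an unadjusted DESeq2 p under 0.05), with a summed implied level of 114381 normalized counts in wild type and 60820.2 in the knockout. Of 14 projection neuron markers 10 rose and 2 fell, summing to 34146 and 59991. The 2 that fell were Cux1 (-0.49, SE 0.16) and Cux2 (-0.82, SE 0.31), so the sum does not describe every marker. Immature neuron markers rose in 6 of 7 cases, from 161597 to 310159. Among 10 markers of neurons in general, 4 rose and 1 fell, with sums of 271704 and 282113. Sst, an interneuron peptide gene, is in the CREB target list too, at -0.28 (SE 0.29) in the authors' deposited table. The part of these shifts in the results for the 10 genes and for the CREB targets was not tested.

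Promoters were searched for the elements that both families recognise. RefSeq promoters (GRCm38.p6) run from 250 bases before to 50 after each gene start, and 8 of the 10 genes had an entry that was searched. Crem and Crtc2 had none. The full CRE, TGACGTCA, was searched together with its half-site TGACG on both strands, which the full element contains, and with the MEF2 consensus. Of all 32851 promoters, 1.79% held the full CRE, 20.8% a half-site and 3.19% a MEF2 site. None of the 8 genes held the full CRE. The promoter of Atf1 held the only half-site, and that of Mef2a the only MEF2 site, which spans the annotated start. The Atf1 half-site starts at position -90 from the gene start. Both are shown because they lie in the members' own promoters, with the motif in capitals, 5′ to 3′ on the gene's strand, at chr7:67372841-67372870 (minus) and chr15:100227753-100227789 (plus).

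Mef2a: ggcctgactcCTAAAAATAGccccggtgtg
Atf1: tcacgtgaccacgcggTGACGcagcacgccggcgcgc

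Of the 25 CREB targets 20 had a promoter entry and 6 held the full CRE. These 6 are shown, with the element in capitals, because the target list is the part of the pathway with the most lower calls.

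Scg2, chr1:79440071-79440110 (minus): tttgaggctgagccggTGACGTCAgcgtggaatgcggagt
Btg2, chr1:134079298-134079337 (minus): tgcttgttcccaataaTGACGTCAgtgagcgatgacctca
Pcsk1, chr13:75089763-75089802 (plus): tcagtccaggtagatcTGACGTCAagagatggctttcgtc
Cartpt, chr13:99900772-99900811 (minus): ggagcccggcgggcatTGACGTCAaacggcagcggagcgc
Sst, chr16:23890869-23890908 (minus): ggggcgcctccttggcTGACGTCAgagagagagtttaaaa
Dusp1, chr17:26508592-26508631 (minus): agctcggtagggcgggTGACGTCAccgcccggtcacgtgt

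Of these 6 genes 2 passed. Scg2 and Pcsk1, with the element starting at positions -68 and -78 from the gene start, fell. In the authors' deposited table Dusp1 (-0.74, SE 0.30, adjusted p = 0.0602), Sst (-0.28, SE 0.29), Btg2 (-0.03, SE 0.25) and Cartpt (0.69, SE 0.56) did not pass. For the 6 targets with the element the median was -0.51, and 2 were lower. The 14 targets with a promoter entry but no full CRE had a median log2 fold change of -0.84, and 5 were lower.

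Across all genes, a CRE in the promoter went with more lower and fewer higher calls. Of 415 tested genes with a full CRE, 17.6% were lower and 7.47% higher, against 12.2% in each direction among the 12330 tested genes with a promoter entry. Their median log2 fold change was -0.10, and that of all 12330 was -0.02. Genes with a CRE also had a higher median mean count, 1189 against 717, and a median promoter GC content of 61.0% against 60.3%. The part of these in the difference was not tested. For the half-site, in 4105 genes, the shares were 13.4% lower and 10.3% higher. Genes with a MEF2 site numbered 274, of which 13.5% were lower and 9.12% higher, with a median log2 fold change of -0.06. Mef2a itself is one of the 25 of these genes that rose.

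**Figure D5:**
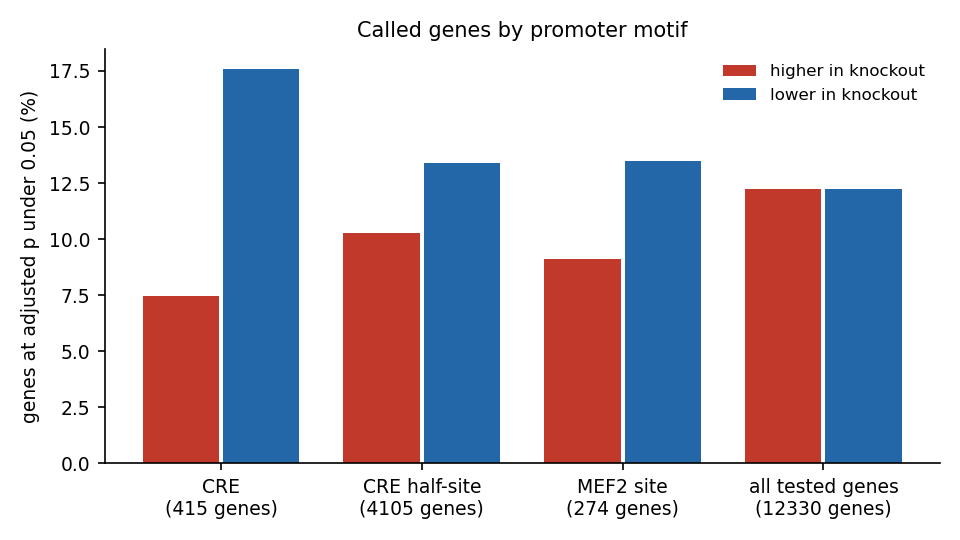
Share of tested genes called higher (red) and lower (blue) in the knockout, in percent, for genes whose promoter holds a full CRE, a CRE half-site or a MEF2 site, and for all tested genes with a promoter entry. Full CRE genes show 17.6% lower against 7.47% higher, while all genes show 12.2% in each direction.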

How the data were processed

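The 8 libraries were of polyadenylated RNA prepared with a stranded kit, per the labels' protocols. The submitters' processing notes name the build mm10, DESeq2 and DESeq. Aligner, counter and strand setting: not given in the sources used here. The deposited table holds, per the file headers, a mean normalized count signal over all libraries, a log2 fold change with its standard error, a Wald score, and a p-value with its adjusted p-value. The deposited score equals the fold change over its error within 2.86e-07.

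An adjusted p was given for 18085 genes. Another 8135 had a p only, all with mean counts of at most 2.99, and 9 had none. The deposited fold change of H2bc21 is positive, so the signs of all fold changes and Wald scores were reversed to make it lower in the knockout. The implied level in each genotype assumes that the fold change is the ratio of the 4 and 4 library means. Intervals are 95% normal intervals from the deposited error.

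Genes were matched by Ensembl identifier to GENCODE M21 on GRCm38 (26032 rows). Length is the union of exons. Transcripts alike over 200 bases at 95% identity were sought with minimap2 2.31. Promoters were matched by symbol. No set test was run. Named genes are the 10, H2bc21, and in each pathway list up to 4 called genes of smallest adjusted p, or the most abundant where none was called. Others in the text were chosen after their values were seen. The 10 genes and the lists were chosen with earlier results of these data known. Genes of the most alike pattern were not sought, since values per library were not analysed here. The scripts were tested on simulated data. Calculations used Python 3.11.15, numpy 2.4.6, pandas 2.3.3, scipy 1.17.1 and matplotlib 3.10.9. Alternatives were 2 other thresholds, 2 filters on counts, 2 null distributions, centring of fold changes, transcript length and, chosen after seeing the data, the CRE half-site.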

Additional observations from a re-analysis of the deposited data

How the results depend on the processing

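The calls depended on the null distribution, and both alternatives called few of all tested genes. With the t distribution no Wald statistic below that of Dpysl3 (7.77) could pass, so it cannot decide about single calls. The empirical null did let genes pass, and none of the calls among the 10 genes held under it. True changes in many genes would widen that null too. With the t distribution (6 degrees of freedom), 0 of the 10 genes, 0 of the pathway genes, 0 CREB targets and 0 genes with a CRE or a MEF2 site were called higher or lower, and over all tested genes 0 were higher and 1, H2bc21, lower. At an unadjusted p under 0.05 from that distribution, 2 of the 10 genes were higher and 1 lower, and 7 pathway genes were higher and 17 lower. With the empirical null, 46 of all tested genes were higher and 25 lower, with 0 of the 10 genes, 0 pathway genes, 0 CREB targets, 1 higher and 0 lower genes with a CRE, and 1 higher and 0 lower with a MEF2 site. At an unadjusted p under 0.05 from the empirical null, 0 of the 10 genes passed, and 6 pathway genes were higher and 5 lower. At an adjusted p of 0.01, 1 of the 10 genes remained higher, since Crtc1 was lost, 1192 of all tested genes were lower, 16 genes with a CRE were higher and 43 lower, and 15 with a MEF2 site were higher and 17 lower. At 0.1 the lower pathway genes numbered 20. The half-site gave 13.4% lower genes in place of 17.6%. Per kilobase of the longest transcript, Creb1 came to 260.0, Crem to 349, Mef2a to 1089 and Mef2c to 2841. Centring the fold changes, which moved them by 0.02, a minimum mean count of 100 and no filter on low counts kept every count over the 10 genes, all genes, all pathway genes and the motif genes within 1.5 times. Under centring, none of the 10 genes and none of the genes named by rule in the lists changed sign. No paired analysis was possible because values per library were not analysed here, and for the same reason no replicate was left out, no count model was refitted and no other normalization was run.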
